A study of Mus musculus with 6 samples.

Results

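The genes described are 10 that take up, break down, store or export heme and iron: Hmox1, Fth1, Ftl1, Slc40a1, Slc11a1, Slc48a1, Tfrc, Cd163, Blvrb and Spic. They were chosen by gene symbol from the 60832 genes of a table of RNA-seq counts, and each symbol matched a single row. All 10 also passed the filter on low counts, which left 15474 genes for testing. The libraries are labelled as mouse liver sinusoidal endothelial cells (LSECs) cultured for 24 h, and by the study's methods LSECs were purified on anti-CD146 beads from tumor-bearing mice. Their marker genes, given below, go against this label. The tumors were colorectal cancer liver metastasis (CRCLM) xenografts of the human colon carcinoma line HCT116, injected into the left lobe of the liver. There were 3 libraries from bevacizumab-sensitive and 3 from bevacizumab-resistant xenografts; bevacizumab is an antibody against the growth factor VEGF-A. By the study's description, resistant xenografts had received bevacizumab at 10 mg/kg, for 42 days in its Results and for 7 weeks in its Methods. The other arm was the vehicle group, which by the Methods was given IgG. The Methods list male BALB/c-Nu mice aged 4 to 6 weeks, an immunodeficient strain without T cells. How many mice gave each library is not stated, so a p-value here measures only the spread between these libraries, which may be technical.

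In the GRCm38 annotation all 10 are protein-coding genes. Hmox1 lies at chr8:75093621-75100589, Fth1 at chr19:9980598-9985098, Ftl1 at chr7:45457944-45459884, Slc40a1 at chr1:45908068-45926523 and Slc11a1 at chr1:74375195-74386062. Slc48a1 lies at chr15:97778520-97792692, Tfrc at chr16:32608920-32632794, Cd163 at chr6:124304656-124330527, Blvrb at chr7:27447978-27466144 and Spic at chr10:88674772-88685015.

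Iron from aged red blood cells is returned to the blood by phagocytes, chiefly macrophages of the spleen and the Kupffer cells of the liver. Hemoglobin and red cells are engulfed, heme is carried out of the phagolysosome and opened by heme oxygenase, and the iron set free is stored in ferritin or exported by ferroportin. Liver endothelial cells take up part of the circulating waste as well, and they secrete the signal through which iron load raises hepcidin, the hormone that removes ferroportin from the cell surface.

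The libraries labelled as LSECs held high levels of macrophage genes, which bears on every value below. CPM here is the count divided by the TMM-scaled library total, on the usual CPM scale. The CPM of 16 macrophage and Kupffer cell markers, all of them detected and tested, summed to between 23009 and 42391 in sensitive and between 26253 and 30312 in resistant libraries. The sum over 10 sinusoidal endothelial markers was 485 to 713 CPM in sensitive and 274 to 658 CPM in resistant libraries. Clec1b alone held 206 to 527 CPM of it in sensitive and 140 to 194 CPM in resistant libraries. For 10 pan-endothelial markers the sum was 220 to 452 CPM and 65.5 to 389 CPM, respectively. Of that, Cdh5 alone held 48.0 to 220 CPM in sensitive and 18.3 to 230 CPM in resistant libraries. Which cells the RNA of Clec1b and Cdh5 came from was not tested, so neither sum need be endothelial RNA alone. Mcam, which encodes the bead target CD146, was at 0.814, 1.56 and 3.87 CPM in sensitive and 0.362, 0.308 and 1.33 CPM in resistant libraries. In bulk RNA, fewer cells of a type and less RNA per cell cannot be told apart. Total counts ran from 17599326 to 20726684, so that 3 counts were worth 0.136 to 0.195 CPM. Every member had at least 1450 counts in every library.

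Sensitive replicate 2 stood apart from the other 5 libraries in a way that followed transcript length. Among 12718 tested genes with an annotated length, the median log2 deviation from the mean of the other libraries was 1.23 higher for transcripts under 1861 bases than for those over 4433 bases, the outer bins when genes are cut into 4 equal bins by length. The same quantity lay between -0.36 and -0.15 in the other 5 libraries. Where leaving it out moved the edgeR log2 fold change printed for a heme or iron gene by more than 1.5 times or turned its direction, the value without it is given as well. Slc11a2 and Ncoa4 are named without a log2 fold change, and no such value is given for them.

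By the authors' FPKM, the members fell into 3 levels. The gene lengths behind FPKM are not given and differ from the transcript lengths printed below. The order between genes depends on them. Fth1, the heavy ferritin subunit that oxidizes iron, had a median of 5645 FPKM over the 6 libraries, with a range of 3882 to 8234. Ftl1, the light subunit that helps the mineral core to form, had a median of 5029 FPKM and a range of 4250 to 9863. Hmox1, the inducible heme oxygenase, had a median of 3493 FPKM and a range of 2872 to 6619. By count, Fth1 was the most abundant gene of the table in 4 libraries, and it ranked 2 and 4 in sensitive replicates 2 and 3. Both ferritin genes together took between 1.97% and 4.18% of all counts of a library, and Hmox1 between 0.503% and 1.159%.

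The transporters and the hemoglobin receptor formed the middle level. Slc48a1, which carries heme out of the phagolysosome, had a median of 279 FPKM and a range of 119 to 383. For Slc11a1, a phagosomal metal exporter, the median was 259 FPKM, for the hemoglobin-haptoglobin receptor Cd163 it was 245 FPKM, and for the iron exporter ferroportin, Slc40a1, it was 205 FPKM. Blvrb, a biliverdin and flavin reductase, followed at 93.4 FPKM. Spic, a transcription factor of iron-recycling macrophages that heme induces, and Tfrc, the transferrin receptor, were lowest, with medians of 28.3 and 26.6 FPKM.

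Of the 9 pairs of neighbours in this order, Hmox1 was above Slc48a1 in 6 of 6 libraries, 15.3-fold on average, and Blvrb was above Spic in 6 of 6, by 3.32-fold. The order was set on these same libraries, so it is a description and no p-value is given. The other 7 pairs of neighbours changed places in at least 1 library. In FPKM, Fth1 and Ftl1, for example, differed by 1.03-fold on average, with Fth1 higher in 4 of 6 libraries. By count Fth1 was above Ftl1 in every library, so their near-equality depends on the lengths in FPKM.

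**Figure D1:**
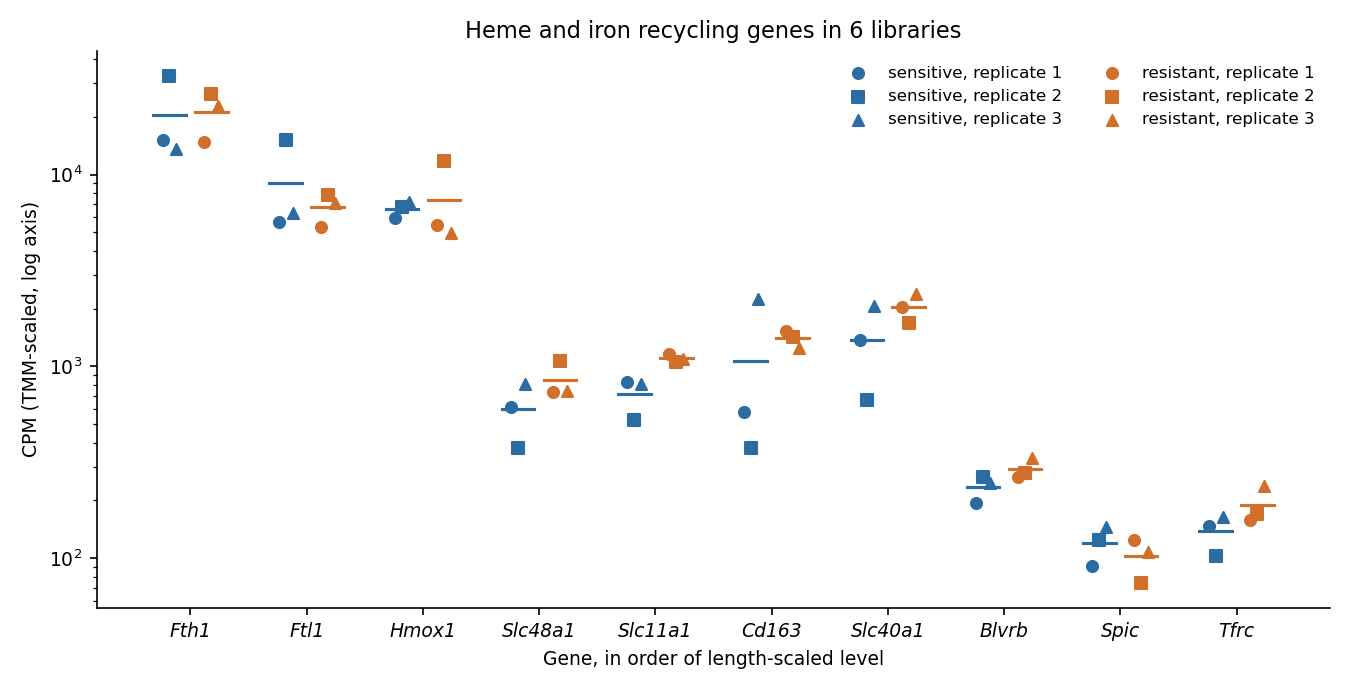
CPM (log axis) of the 10 genes in each of the 6 libraries, with genes ordered by their length-scaled level from left to right. Each point is a library, its shape gives the replicate number and short lines are group means; the groups are apart in Slc11a1 and, by under 1 CPM, in Blvrb.

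The ferritins, ferroportin and the transferrin receptor are known for iron-responsive elements (IREs), hairpins in the untranslated regions (UTRs) of their mRNAs. Iron regulatory proteins, encoded by Aco1 and Ireb2, bind them when iron is scarce. Bound to a 5′ UTR they block translation, and bound to the 3′ UTR of Tfrc they protect the mRNA from decay, so mRNA levels alone do not report ferritin protein. The hairpins are shown because they set apart the members that are controlled in this way. The motif searched was CNNNNNCAGUGN, a bulged C, 5 bases of stem and the loop CAGUGN, followed by 5 bases that pair with the stem, G-U pairs included, on the RNA strand only. It was present in 4 of the 10 members, and none of the matches overlap. Of 21866 protein-coding genes, 0.087% held it in the 5′ UTR and 0.476% in the 3′ UTR. In each line, 30 bases are given 5′ to 3′ and capitals mark the loop:
Fth1, 5′ UTR: uuccugcuucaaCAGUGCuugaacggaacc
Ftl1, 5′ UTR: gucuugcuucaaCAGUGUuugaacggaaca
Slc40a1, 5′ UTR: caacuucagcuaCAGUGUuagcuaaguuug
Tfrc, 3′ UTR, match 1: aauuaucggaagCAGUGCcuuccauaauua
Tfrc, 3′ UTR, match 2: cauuaucgggagCAGUGUcuuccauaaugc
Tfrc, 3′ UTR, match 3: cuauaucggagaCAGUGAucuccauauguu
Tfrc, 3′ UTR, match 4: aauuaucgggaaCAGUGUuucccauaauuu

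In GRCm38, each match lies within a single exon. The Fth1 match is at chr19:9982732-9982761 on the plus strand, that of Ftl1 at chr7:45459778-45459807 on the minus strand and that of Slc40a1 at chr1:45925464-45925493 on the minus strand. The 4 matches of Tfrc are at chr16:32631219-32631248, chr16:32631598-32631627, chr16:32631663-32631692 and chr16:32631710-32631739 on the plus strand. Only the transcript with the longest coding sequence of each gene was searched, so a motif held by other transcripts would be missed. Of the 56 other iron and heme genes described below, 1 held the motif there, Alas2, the erythroid enzyme of heme synthesis. Its mRNA had at most 8 counts in a library.

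The question of the design is how cells from resistant xenografts differ from those of sensitive ones. None of the 10 genes passed the test: edgeR's quasi-likelihood test called 0 of 10 at a Benjamini-Hochberg adjusted p-value under 0.05, as it called 0 of the 15474 genes tested (0%), and the smallest adjusted p-value of all was 0.940. Before adjustment, 1 member had a p-value under 0.05, Slc11a1, which was higher in the resistant group. Of all genes, 3.08% were under that threshold, 0.536% higher and 2.54% lower. DESeq2's Wald test, which called 24 genes, also called 0 of the 10. The log2 fold change of the resistant against the sensitive group was above 0 in 8 of the 10 members, with a median of 0.35, beside 50.8% of all genes, whose median was 0.01. Without sensitive replicate 2 it was above 0 in 8 members, with a median of 0.24. Without sensitive replicate 1 these were 7 members and a median of 0.145, and without resistant replicate 2 they were 6 members and 0.33.

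**Figure D2:**
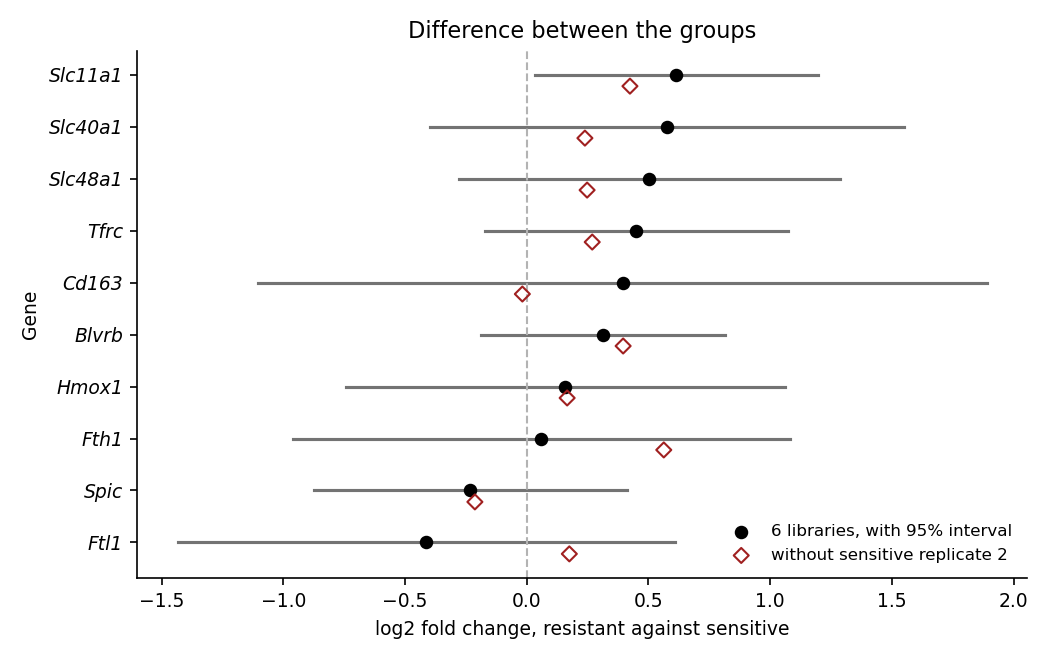
Log2 fold change of the 10 genes, resistant against sensitive, from edgeR with 95% intervals (points and lines) and the same value without sensitive replicate 2 (open diamonds). The interval lies above 0 for Slc11a1 alone, from 0.03 to 1.20, and the diamonds of Ftl1 and Cd163 are on the other side of 0 from their points.

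Among the genes of uptake, Cd163 was at 575, 375 and 2251 CPM in sensitive replicates 1, 2 and 3 and at 1529, 1425 and 1251 CPM in resistant replicates 1, 2 and 3. The resistant libraries lay close together, inside the wide range of the sensitive ones, in which replicate 3 was highest of all 6. Between the groups the log2 fold change was 0.39 ± 0.63 (SE, n = 3 per group; edgeR adjusted p = 0.940). It was -0.02 without sensitive replicate 2 and 1.57 without sensitive replicate 3.

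Slc48a1, the heme carrier, was at 616, 374 and 805 CPM in sensitive and 731, 1071 and 744 CPM in resistant libraries. The groups overlapped, with sensitive replicate 2 lowest and resistant replicate 2 highest. Its log2 fold change was 0.50 ± 0.33 (SE, n = 3 per group; edgeR adjusted p = 0.940), and 0.25 without sensitive replicate 2.

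Slc11a1 encodes a transporter that moves iron and manganese out of the phagosome, and BALB/c mice are known to carry a loss-of-function allele of it. It was at 825, 527 and 808 CPM in sensitive and at 1160, 1057 and 1091 CPM in resistant libraries. All 3 resistant libraries were above all 3 sensitive ones. The group means were 720 ± 168 and 1103 ± 52.4 CPM (SD, n = 3 each), a 1.53-fold difference with a 95% interval of 1.02 to 2.29. On the log2 scale this was 0.61 ± 0.25 (SE), with an edgeR adjusted p-value of 0.940; the unadjusted p-value was under 0.05. Without sensitive replicate 2, the lowest library, the value was 0.42 (edgeR adjusted p = 0.984).

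Tfrc imports transferrin-bound iron. It was at 147, 103 and 163 CPM in sensitive and 157, 169 and 238 CPM in resistant libraries. Resistant replicate 1 lay just below sensitive replicate 3, so that the groups overlapped by a single pair; with library totals in place of TMM they did not overlap, with the resistant libraries higher, as in 5.01% of all genes. Its log2 fold change was 0.45 ± 0.26 (SE, n = 3 per group; edgeR adjusted p = 0.940), and 0.27 without sensitive replicate 2.

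Of the enzymes of heme breakdown, Hmox1 was at 5919, 6777 and 7182 CPM in sensitive and at 5462, 11771 and 4955 CPM in resistant libraries. The sensitive libraries lay between the resistant ones, of which replicate 2 was highest of all and replicates 1 and 3 lowest of all. For Hmox1 the log2 fold change was 0.16 ± 0.38 (SE, n = 3 per group; edgeR adjusted p = 0.949). Without resistant replicate 2 it was -0.34. Blvrb reduces biliverdin, the product of heme oxygenase, and also flavins. It was at 194, 263.5 and 247 CPM in sensitive and at 263.8, 278 and 332 CPM in resistant libraries. The groups did not overlap, but sensitive replicate 2 and resistant replicate 1 differed by less than 1 CPM. Its log2 fold change was 0.31 ± 0.21 (SE, n = 3 per group; edgeR adjusted p = 0.940).

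The groups did not overlap and the resistant one was higher in 2 of 10 members, Slc11a1 and Blvrb, beside 4.64% of all genes tested; 9.02% were apart in either direction. In both, the exact permutation p-value was 0.1, the smallest that 3 against 3 libraries allow. Groups that do not overlap always give this value, so it adds nothing to the separation. No member was lower in all resistant than in all sensitive libraries, beside 4.38% of all genes.

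Both ferritin genes, which store iron, were highest in sensitive replicate 2. Fth1 was at 15108, 32622 and 13549 CPM in sensitive and at 14693, 26434 and 22752 CPM in resistant libraries. Sensitive replicate 2 was the highest library, above resistant replicates 2 and 3, and the other 3 were close together. For Fth1 the log2 fold change was 0.06 ± 0.43 (SE, n = 3 per group; edgeR adjusted p = 0.983), and 0.56 without sensitive replicate 2. Ftl1 was at 5630, 15095 and 6292 CPM in sensitive and 5347, 7844.5 and 7117 CPM in resistant libraries. Sensitive replicate 2 was again highest, and the remaining 5 spanned a narrow range. For Ftl1 the log2 fold change was -0.41 ± 0.43 (SE, n = 3 per group; edgeR adjusted p = 0.940) and turned to 0.17 without sensitive replicate 2. Both genes have processed pseudogenes that can share reads with them. The listed pseudogenes held at most 0.018% of the counts of Fth1 and its copies, and between 2.33% and 3.76% for Ftl1, so reads may be split between Ftl1 and its copies.

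Slc40a1, the only known iron exporter of mammalian cells, was at 1377, 666 and 2050 CPM in sensitive and at 2031, 1673 and 2395 CPM in resistant libraries. The groups overlapped because sensitive replicate 3 exceeded resistant replicates 1 and 2. Its log2 fold change was 0.57 ± 0.41 (SE, n = 3 per group; edgeR adjusted p = 0.940). It was 0.24 without sensitive replicate 2 and 1.00 without sensitive replicate 3. Spic was at 90.4, 124 and 145 CPM in sensitive and at 124, 74.5 and 107 CPM in resistant libraries, and the groups overlapped. The log2 fold change was -0.23 ± 0.27 (SE, n = 3 per group; edgeR adjusted p = 0.940).

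The intervals leave room for differences of either sign in 9 of the 10 genes. For Hmox1 the 95% interval of the fold reached from 0.598 to 2.08, and for Cd163 from 0.465 to 3.71. On the log2 scale the narrowest interval was that of Blvrb, whose fold reached from 0.877 to 1.76.

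The ratios of 3 gene pairs within a library were compared, since a ratio does not depend on the library total. The absolute size of a ratio depends on the lengths in FPKM, whereas its difference between groups does not. The FPKM of Fth1 was 1.04, 0.835 and 0.832 times that of Ftl1 in sensitive replicates 1, 2 and 3, and 1.06, 1.30 and 1.23 times in resistant replicates 1, 2 and 3. The ferritin heavy-to-light ratio was thus higher in all 3 resistant than in all 3 sensitive libraries, although replicate 1 of both groups differed little. The difference in the mean log2 ratio was 0.42 (exact permutation p = 0.1, the smallest possible with 3 against 3), and 0.36 without sensitive replicate 2. The log2 ratio of the importer Tfrc to the exporter Slc40a1 was -2.68, -2.16 and -3.11 in sensitive and -3.15, -2.76 and -2.79 in resistant libraries. The groups overlapped (difference -0.25, exact permutation p = 0.4), and the difference ranged from -0.48 without sensitive replicate 3 to -0.0050 without sensitive replicate 2. For Hmox1 to Blvrb, the log2 ratio was 5.60, 5.35 and 5.53 in sensitive and 5.04, 6.07 and 4.57 in resistant libraries. Resistant replicate 2 was highest and resistant replicates 1 and 3 lowest (difference -0.27, exact permutation p = 0.6).

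**Figure D3:**
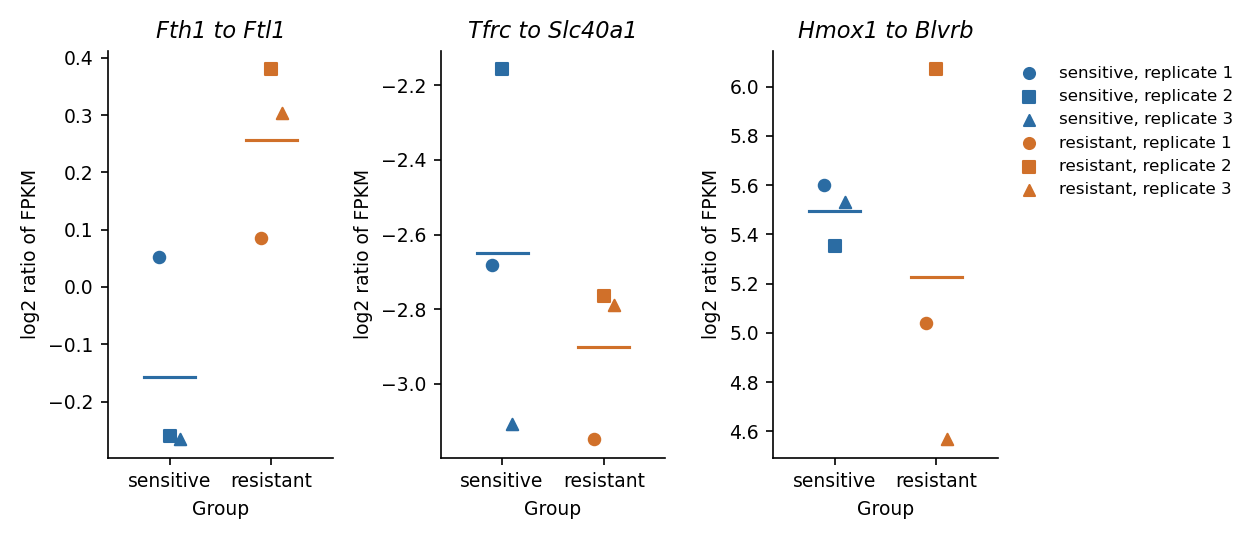
Log2 ratio of FPKM within each library for 3 pairs of genes, by group; points are libraries, shapes are replicate numbers and lines are group means. The Fth1 to Ftl1 ratio is higher in the 3 resistant libraries than in the 3 sensitive ones, and the other ratios overlap; the vertical axes differ and do not start at 0.

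The deviation of sensitive replicate 2 divided the members by transcript length. Relative to the mean of the other 5 libraries, its log2 CPM was 1.24 higher for Ftl1, whose transcript has 968 bases, and 0.87 higher for Fth1, with 1494 bases. It was near the others for Blvrb (951 bases, 0.03), Hmox1 (1569 bases, 0.02) and Spic (1763 bases, 0.23). In the 5 members with longer transcripts it was lower: by -0.89 for Slc11a1 (2315 bases), -1.06 for Slc48a1 (2536 bases), -1.49 for Slc40a1 (3370 bases), -1.78 for Cd163 (4443 bases) and -0.75 for Tfrc (4890 bases). For each of these 5 members the log2 fold change between the groups was smaller when this library was left out. The part of transcript length in these differences was not tested.

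**Figure D4:**
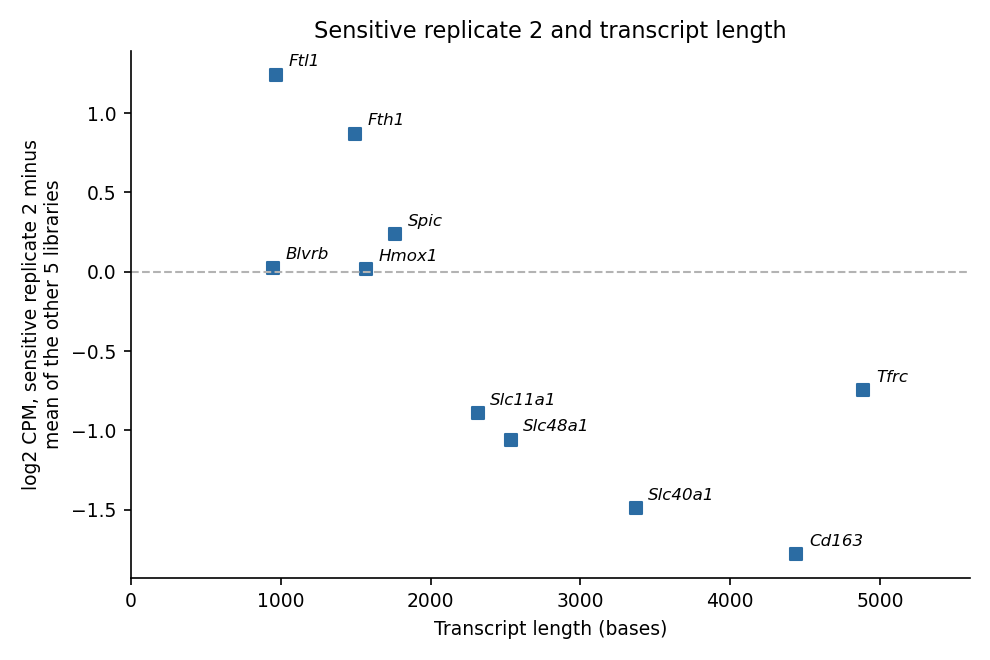
Log2 CPM of sensitive replicate 2 minus the mean of the other 5 libraries, for each of the 10 genes, against the length in bases of the transcript with the longest coding sequence. The 5 genes with transcripts of 2315 bases or more are below 0, and Ftl1 and Fth1 are highest.

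Cell type markers were set beside these values. The macrophage markers had a log2 fold change above 0 in 8 of 16, with a median of -0.03, and 2 had an unadjusted p-value under 0.05. This median covers shifts in both directions. Timd4 was at 103, 158 and 94.6 CPM in sensitive and at 77.0, 12.6 and 19.8 CPM in resistant libraries. Cd14 was at 110, 135 and 80.8 CPM in sensitive and at 214, 145 and 164 CPM in resistant libraries. The medians of the endothelial lists were -0.39 over the 10 sinusoidal markers and -1.34 over the 10 pan-endothelial markers. Of the former 1 and of the latter 5 had an unadjusted p-value under 0.05, beside 3.08% of all genes tested. Both sums were lowest in resistant replicate 2, at 274 and 65.5 CPM. In resistant replicates 1 and 3 the pan-endothelial sum was 339 and 389 CPM, inside the sensitive range of 220 to 452 CPM. The 9 neutrophil markers had a median of -2.19, with 0 of 9 above 0 and 1 at an unadjusted p-value under 0.05, and their summed CPM was 140 to 6885 in sensitive and 111 to 1492 in resistant libraries. Of the 8 hepatocyte markers 7 were tested, with a median of 0.86. All 7 were above 0 and none had an unadjusted p-value under 0.05. The sums over all 8 were 83.9, 107 and 34.0 CPM in sensitive and 64.1, 200 and 97.1 CPM in resistant libraries, highest in resistant replicate 2. Of the 7 stellate and fibroblast markers 6 were tested, with a median of 0.48. The sums over all 7 were 141, 155 and 78.5 CPM in sensitive and 79.1, 342 and 113 CPM in resistant libraries, with the same library highest. In this list Lrat, a defining stellate marker, was at or below 0.196 CPM and Pdgfrb at or below 2.72 CPM. Acta2 was at 11.6 to 93.1 CPM and Col1a1 at 24.7 to 135 CPM over the libraries. Of 9 erythroid markers, 8 were in the table, 2 were tested and 2 were at 0 in every library, and their sum was 4.07 to 13.5 CPM in sensitive and 0.513 to 1.49 CPM in resistant libraries. The 2 tested erythroid genes both had an unadjusted p-value under 0.05, with a median log2 fold change of -4.39. The part of these cell types in the members' values was not tested.

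In an alternative chosen after seeing the data, members were taken relative to the mean log2 CPM of the 16 macrophage markers of the same library. On this scale 4 members were higher in every resistant than in every sensitive library, beside 5.85% of all genes tested on the same scale, with differences of 0.83 for Slc40a1, 0.77 for Slc11a1, 0.67 for Slc48a1 and 0.44 for Blvrb. Each had an exact permutation p-value of 0.1, the smallest possible, which groups that do not overlap always give. The other 6 overlapped, among them Cd163 at 0.95, Tfrc at 0.58 and Ftl1 at -0.16. Slc40a1 and Slc48a1 are not apart on the CPM scale, so their separation depends on this scaling. These differences include sensitive replicate 2 and were not computed without it. In the edgeR fit, leaving it out lowered the log2 fold change to 0.24 for Slc40a1, 0.42 for Slc11a1 and 0.25 for Slc48a1. For Blvrb it was 0.40. The 16 markers were themselves not level between the groups, with Timd4 lower and Cd14 higher in every resistant library. How far the separation of the 4 members rests on single markers was not tested.

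How alike the members were over the 6 libraries was measured by the root mean square (RMS) difference of their centred log2 CPM. The closest pairs were Slc11a1 and Tfrc (0.23), Fth1 and Ftl1 (0.25), and Slc11a1 and Slc48a1 (0.27). Over 9558 genes with a mean log2 CPM of at least 3, the nearest to Hmox1 were Gpr157 (0.11), Ptpro (0.20) and Rnase2a (0.21), where the median gene was at 0.52. Gpr157 was at 103, 114 and 137 CPM in sensitive and 108, 195 and 98.1 CPM in resistant libraries, with its peak in resistant replicate 2 as in Hmox1. Nearest to Slc40a1 were Tmem175 (0.065), Zfp316 (0.09) and Nipal3 (0.09), against a median of 0.61. Nearest to Spic were Zfp605 (0.08), Pdgfa (0.10) and Cabyr (0.13), against a median of 0.46. With 6 libraries that share the deviation of sensitive replicate 2, these distances are a description only.

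The rest of the pathway was followed with a list of 56 iron and heme genes, of which 49 were tested. None was called at an adjusted p-value under 0.05 by edgeR, and before adjustment 0 higher and 3 lower genes had a p-value under 0.05, beside 0.536% and 2.54% of all genes. DESeq2's Wald test also called 0 of them. The log2 fold change was above 0 in 25 and below 0 in 24 genes, with a median of 0.05. The groups did not overlap in 3 genes that were higher, Slc11a2, Slc39a14 and Nfs1, and in 1 that was lower, Steap4, beside 4.64% and 4.38% of all genes. The 7 untested genes had at most 47 counts in a library.

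The 3 genes with a low unadjusted p-value belong to different roles. Hp encodes haptoglobin, the hemoglobin-binding plasma protein whose complex Cd163 takes up, which neutrophils also store in granules. It was at 511, 2110 and 109 CPM in sensitive and 178, 198 and 63.2 CPM in resistant libraries. The groups overlapped, and sensitive replicate 2 was highest (log2 fold change -2.64 ± 1.01 SE, n = 3 per group; edgeR adjusted p = 0.940). Without that library the log2 fold change was -1.10. The summed neutrophil markers were 3587, 6885 and 140 CPM in sensitive and 1492, 742 and 111 CPM in resistant libraries, with the same library highest and the replicates numbered 3 lowest in both groups. The part of neutrophils in the values of Hp was not tested. Steap4, a metalloreductase, was at 10.2, 3.11 and 4.16 CPM in sensitive and 2.17, 0.514 and 1.49 CPM in resistant libraries, and every resistant value was below every sensitive one (log2 fold change -2.06 ± 0.69 SE, n = 3 per group; edgeR adjusted p = 0.940). Heph, the ferroxidase hephaestin, was at 4.35, 1.10 and 12.3 CPM in sensitive and 1.95, 1.54 and 0.974 CPM in resistant libraries, which overlapped (log2 fold change -1.99 ± 0.83 SE, n = 3 per group; edgeR adjusted p = 0.940). Without sensitive replicate 3 the log2 fold change of Heph was -0.87. The unadjusted p-value was under 0.05 in 9 of 16 settings for Hp, 14 of 16 for Steap4 and 7 of 16 for Heph.

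**Figure D5:**
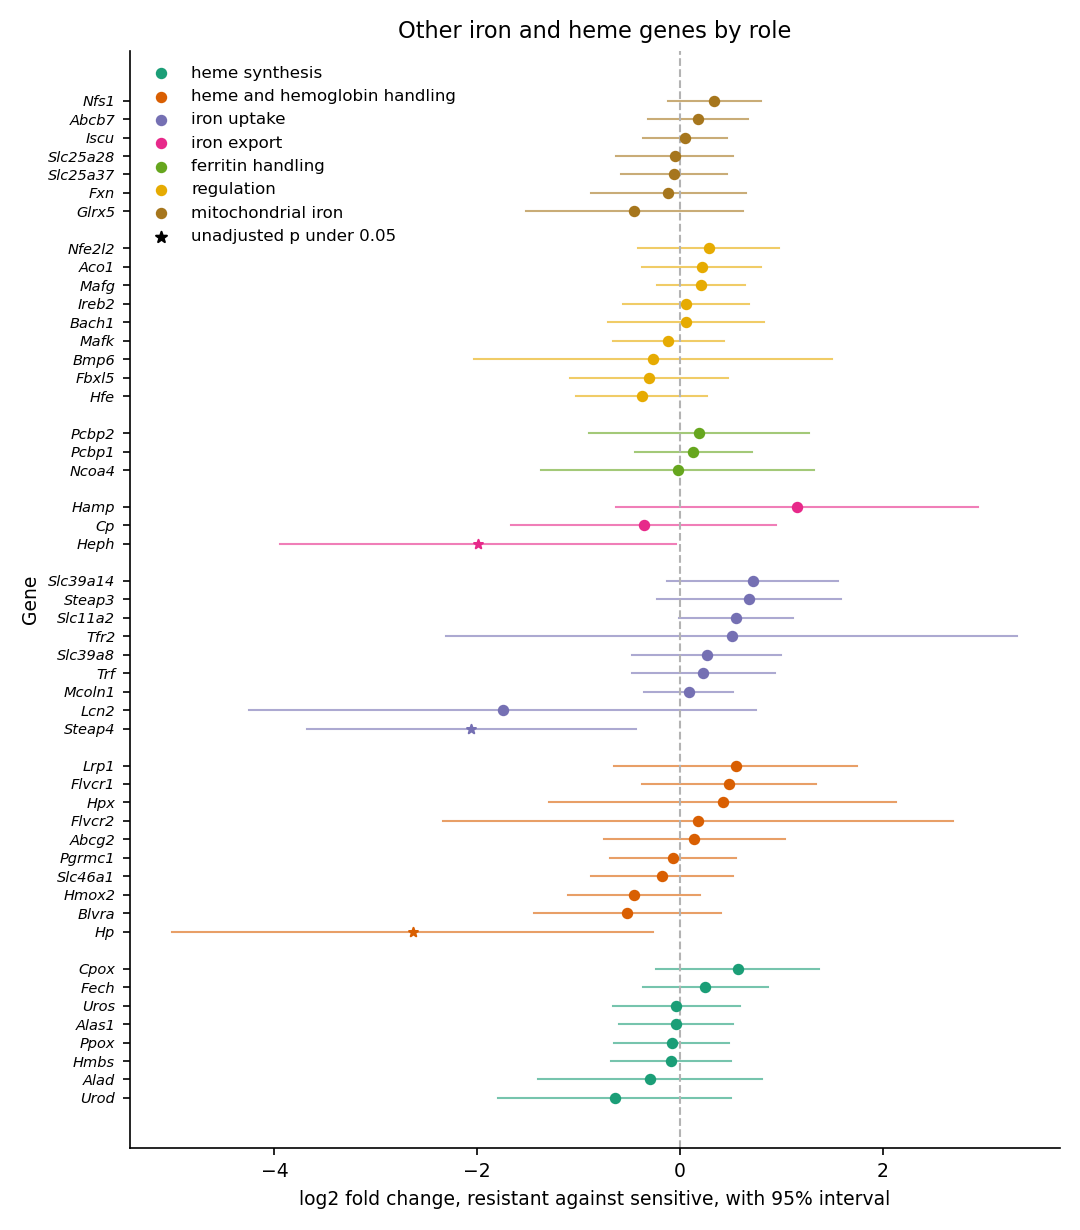
Log2 fold change, resistant against sensitive, with 95% intervals from edgeR for the 49 tested genes of the iron and heme list, coloured by role. Stars mark a p-value under 0.05 before adjustment, reached by 3 genes, Hp, Steap4 and Heph, all below 0; 25 genes are above 0 and 24 below.

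By role, heme synthesis had 8 tested genes, 2 above and 6 below 0, with a median log2 fold change of -0.06. The largest differences there were those of Urod, at -0.64, and Cpox, at 0.57, consecutive enzymes of the pathway; without sensitive replicate 2 these values were 0.16 and 0.29. Heme and hemoglobin handling had 5 of 10 above 0 and a median of 0.04. It includes Lrp1, the receptor for heme bound to hemopexin, at 1306, 538 and 2495 CPM in sensitive and 1929, 2271 and 2154 CPM in resistant libraries (log2 fold change 0.55, edgeR adjusted p = 0.940). Lrp1, like Cd163, was lowest in sensitive replicate 2 and highest in sensitive replicate 3, and its log2 fold change was 0.15 without the former and 1.21 without the latter. Iron uptake had 7 of 9 above 0 and a median of 0.26. In that group Slc39a14, a metal importer, was at 18.7, 8.24 and 18.3 CPM in sensitive and 21.2, 29.9 and 23.3 CPM in resistant libraries, which did not overlap (log2 fold change 0.71, edgeR adjusted p = 0.940; 0.41 without sensitive replicate 2). Lcn2, which binds iron-carrying siderophores and is a neutrophil granule protein, had a log2 fold change of -1.75 (edgeR adjusted p = 0.940), and -1.23 without sensitive replicate 2. Both replicates numbered 3 were lowest for Lcn2, as for the neutrophil markers. The part of neutrophils in the values of Lcn2 was not tested.

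Iron export had 3 tested genes, of which Cp, the plasma ferroxidase ceruloplasmin, had a log2 fold change of -0.36 (-0.19 without sensitive replicate 2). Ferritin handling was represented by Pcbp2 at 0.19 and Pcbp1 at 0.13 (-0.21 and -0.079 without sensitive replicate 2), proteins that bind RNA and deliver iron to ferritin, and by Ncoa4. Regulation had 5 of 9 above 0 and a median of 0.06, with Hfe, a partner of the transferrin receptor, at -0.38 and Fbxl5, which targets iron regulatory proteins for breakdown, at -0.31. Mitochondrial iron had 3 of 7 above 0 and a median of -0.05. There Glrx5, an iron-sulfur cluster carrier, was at -0.45 (0.28 without sensitive replicate 2). Nfs1, the cysteine desulfurase of cluster assembly, was at 34.9, 29.5 and 39.2 CPM in sensitive and 42.6, 42.5 and 46.0 CPM in resistant libraries (log2 fold change 0.34, edgeR adjusted p = 0.940), and its groups did not overlap.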

How the data were processed

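RNA of 6 libraries was sequenced, 3 per group, with groups and replicate numbers taken from the sample titles. The design text of the series speaks of LX-2, a human stellate cell line, in conditioned media, which goes against the titles and the mouse genes of the files; the titles were followed. By the submitters' processing notes, the authors aligned reads with HISAT2 2.0.5 and counted them with featureCounts 1.5.0-p3, naming the build mm9; the annotation is not given in the sources used here. The labels name ribosomal RNA depletion and the study's methods also poly(A) selection. The authors deposited raw counts per gene and FPKM values. A further table deposited by the authors, with group means, log2 fold changes and p-values of their own comparison, was not used.

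The counts were tested in R 4.3.3 with edgeR 4.0.16 (filterByExpr, TMM, robust quasi-likelihood test, two-sided, Benjamini-Hochberg threshold 0.05 over all genes), after a check on simulated data. SEs follow from the F statistic. Depth was 17599326 to 20726684 counts; floors cover counting error only. FPKM, with gene lengths of the authors that are not given, compared levels between genes, and ratios were tested by exact permutation. Within groups, libraries differed by far more than sampling noise (chi-square per gene of 37.8 or more). Same-numbered libraries had deviations correlated at -0.00093, 0.034 and 0.19 and were not treated as pairs.

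Coordinates and UTR sequences are of GRCm38 (GENCODE M21), matched by Ensembl identifier and not of the build in the notes, for the transcript with the longest coding sequence. The 10 members, the 56 pathway genes and the marker lists were chosen with earlier results of these data known. Of the pathway list, up to 2 genes per role with the largest absolute log2 fold change at a mean log2 CPM of at least 3 were named, plus those with an unadjusted p-value under 0.05; Slc11a2, Alas2 and Ncoa4 were named after their values were seen, as were Mcam, Lrat and the marker sums of single libraries. Alternatives were other scalings and filters, DESeq2 1.42.0, limma 3.58.1 (voom, and log2(FPKM + 1)), the replicate block, pseudogene counts added and each library left out.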

Additional observations from a re-analysis of the deposited data

How the results depend on the processing

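The count of genes past the threshold was 0 with edgeR and moved to 2 without the filter on low counts and to 24 with DESeq2's Wald test; no member and no gene of the iron and heme list was called under any of these. Scaling by library totals shifted the median log2 fold change of all genes from 0.01 to 0.06. Of 152 alternative values of the members, 146 kept their direction. The 6 that did not all left out 1 library: over these fits Hmox1 ranged from -0.34 to 0.39, Fth1 from -0.15 to 0.56, Ftl1 from -0.65 to 0.17 and Cd163 from -0.018 to 1.57. Of 210 values of the 15 named pathway genes, 204 kept theirs; over the same fits Urod ranged from -0.94 to 0.16, Cp from -1.10 to 0.067, Pcbp2 from -0.21 to 0.65, Pcbp1 from -0.079 to 0.26, Fbxl5 from -0.54 to 0.091 and Glrx5 from -0.72 to 0.28. The Hmox1 to Blvrb difference in log2 ratio ranged from -0.69 to 0.060, and was above 0 without resistant replicate 3. Slc11a1 had an unadjusted p-value under 0.05 in 10 of 16 settings, with log2 fold changes of 0.42 to 0.73 when 1 library was left out and a lowest adjusted p-value of 0.619. The causes of these shifts were not tested.

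With the replicate number as a block, edgeR called 0 genes, with 467 at an unadjusted p-value under 0.05 against 476 without it, and the Fth1 to Ftl1 difference, which a block cannot move in a balanced design, had an exact permutation p of 0.25, the smallest that 3 pairs allow. The libraries share only a number, so the block says little here. Each member had at least 1450 counts per library, and the common dispersion of the libraries corresponds to a coefficient of variation of 42.2%, in which biological and technical spread are not separated.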
